A study of Xenopus laevis with 9 samples.

Results

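Cytosolic ribosomal protein mRNAs were followed in cranial neural crest explants of Xenopus laevis after loss of ADAM13. ADAM13 is a cell-surface metalloprotease of the migrating neural crest, and its gene carries the symbol adam33 in the array annotation. The members are all probe sets whose annotated gene symbol begins with rpl or rps followed by a number or with rplp, or is rpsa, with the S6 kinase genes left out. The rule used names only, and it found 111 probe sets among the 15491 on the array. They carry 69 different gene names once the copy suffix is removed, with 61 probe sets for the large subunit and 50 for the small subunit.

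Affymetrix arrays measured total RNA in 3 groups of 3. Embryos of the group MO13_C13 had received 10 ng of a morpholino against ADAM13 together with mRNA for GFP fused to the ADAM13 cytoplasmic domain (GFP-C13). MO13 embryos had received that morpholino alone at the same dose, and CMO embryos 10 ng of a control morpholino. The mRNA dose is 300 pg in the sample labels and 0.5 ng in the series text. All embryos were injected as fertilised eggs, before the first cleavage, and raised at 15 °C to stage 15 to 17, and the dissected crest was lysed without culture. Every group therefore carries a morpholino, and uninjected crest was not analysed here. Replicates 1, 2 and 3 of the 3 groups come from 3 common experiments, which makes arrays with the same number a matched trio. Strain, sex and the number of embryos pooled for an array are not stated in the labels.

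The ribosome is built from ribosomal RNAs and a fixed set of proteins of the large and the small subunit, most of them needed in equal numbers in each particle. In vertebrates the mRNAs of these proteins share a terminal oligopyrimidine tract at their start, which lets growth signals set their translation together, and in Xenopus embryos much of their control is known to be translational. Xenopus laevis is allotetraploid, so that many of the genes exist as a .L and a .S copy. Neural crest is of interest here because mutations in ribosomal proteins or in ribosome assembly factors cause human disorders with craniofacial defects.

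Of the 111 probe sets, 94 list 1 symbol, 14 list several symbols that are all ribosomal, and 3 also list a gene outside the rule. Those 3 were counted and are not named. Suffixes that mark probes shared with related transcripts (_s_at, _x_at, _a_at) were carried by 13, 8 and 12 probe sets, so a signal at these can come from either copy or from a relative. Probe sets of 1 gene, and the .L and .S copies, are not independent measurements.

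A few facts of the whole series bear on the members. Medians of the 9 arrays lay between 4.88 and 5.07 on the log2 scale, and arrays of a group correlated across probe sets at 0.979 to 0.991. On the adam33.L probe set MO13_C13 arrays had signals of 10.00, 9.98 and 10.23, MO13 arrays 4.42, 3.78 and 4.81, and CMO arrays 3.07, 4.50 and 3.34. MO13_C13 stood above MO13 by 5.73 (limma, adjusted p = 0.00471), while MO13 minus CMO was 0.70 (adjusted p = 0.832). The injected mRNA encodes part of ADAM13, and whether this probe set reads it was not tested. The adam33.S probe set averaged 1.55 in MO13_C13, 1.43 in MO13 and 1.56 in CMO. A morpholino that blocks translation need not lower its mRNA, so the arrays do not test the knockdown. The list of crest markers (10 probe sets of 6 genes) averaged 7.236 to 7.446 in MO13_C13, 7.239 to 7.638 in MO13 and 7.451 to 7.688 in CMO arrays. Of the 10 probe sets 8 were lower and 2 higher in MO13 than in CMO, and as many in MO13_C13. Among all probe sets 51.1% and 50.2% were lower in these comparisons. No crest probe set passed limma with or without experiment as a block. All 5 probe sets of mesoderm and muscle markers lay under the lowest array median of 4.88, their mean running from 1.59 to 2.00. Among them tnnt3.S averaged 2.42 in MO13_C13, 2.53 in MO13 and 3.54 in CMO. It was lower than in CMO with experiment as a block (limma, adjusted p = 0.0252 in MO13 and 0.0172 in MO13_C13). Of all probe sets 1.16% and 1.76% passed that fit in these comparisons. Neural plate markers averaged 7.75 to 7.96 in MO13_C13 arrays, 7.55 to 7.85 in MO13 and 7.41 to 7.79 in CMO. Epidermal markers averaged 4.39 to 4.64 in MO13_C13 arrays, 4.36 to 4.40 in MO13 and 3.86 to 4.92 in CMO. Of these grhl3.L, at 2.96 in MO13_C13 and 2.16 in CMO, passed with experiment as a block (limma, adjusted p = 0.0287). The gland marker ag1 averaged 2.92 to 3.52 in MO13_C13 arrays, 2.32 to 2.95 in MO13 and 2.26 to 2.56 in CMO. The part of these markers in the values below was not tested. In such bulk samples, fewer cells of a type and less RNA per cell cannot be told apart.

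Ribosomal protein probe sets were among the brightest on the array and varied little between arrays. Their mean signals over the 9 arrays had a median of 12.25, against 4.99 for all probe sets, on the log2 scale. Of the 775 probe sets whose mean lay above the 95th percentile of 10.54, 101 were members, and members made up 61 of the 100 highest means. Signals of different probe sets depend on their own probes, so these ranks describe brightness and not transcript number. The highest single member value was 13.23, and 13.39 was the highest of any probe set, so the members crowd the top of the scale. Whether signals are compressed there was not tested.

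The per-array medians of the members separated no group. They were 12.22, 12.23 and 12.28 in MO13_C13, 12.25, 12.21 and 12.30 in MO13, and 12.26, 12.21 and 12.22 in CMO arrays. As group means these came to 12.24 ± 0.03 in MO13_C13, 12.25 ± 0.05 in MO13 and 12.23 ± 0.03 in CMO (SD, n = 3 each), and the ranges overlapped. The authors' normalization (GC-RMA) puts the arrays on a common scale, and their 95th percentiles lay between 10.525 and 10.6. A shift shared by the brightest probe sets may be partly removed by that step, so these medians cannot exclude one in the mRNAs. The subunit medians were taken over bright probe sets only, 56 of the large and 45 of the small subunit. Dim probe sets, set apart below by a division chosen after the values were seen, were left out of them. Large-subunit medians averaged 12.25 ± 0.03 in MO13_C13, 12.27 ± 0.09 in MO13 and 12.25 ± 0.06 in CMO. Small-subunit medians averaged 12.35 ± 0.05 in MO13_C13, 12.34 ± 0.07 in MO13 and 12.34 ± 0.05 in CMO.

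**Figure D1:**
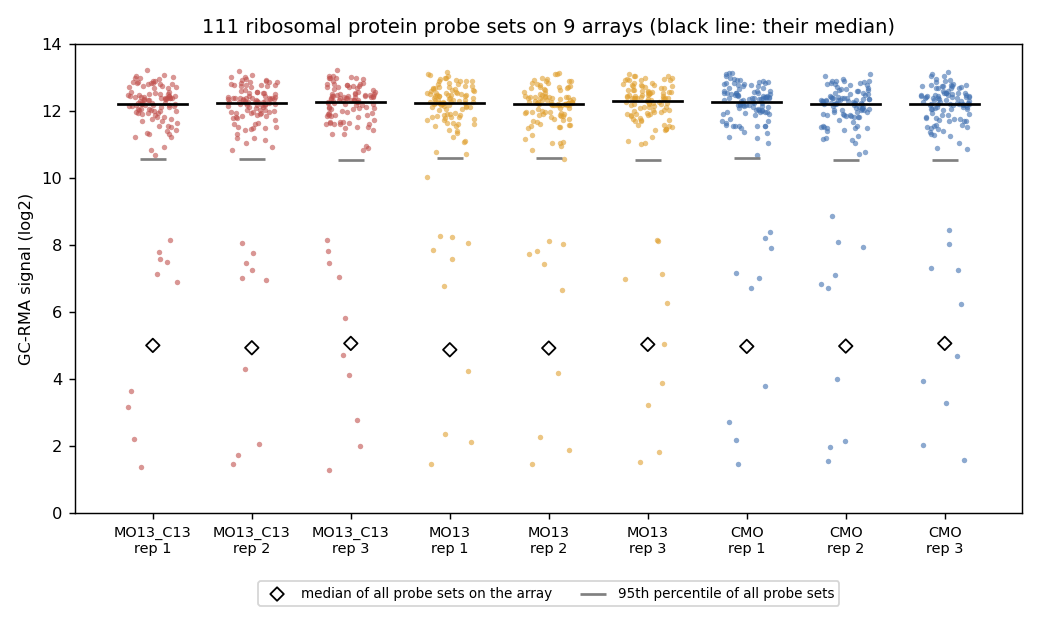
Signals of the 111 ribosomal protein probe sets (points, log2) on each of the 9 arrays, with their median (black line), the median of all probe sets on the array (diamond) and the 95th percentile of all probe sets (grey bar). Member medians lie between 12.21 and 12.30 on all arrays, and 10 probe sets form a dim tail below 10.

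Signals fell into a bright body and a dim tail. There were 101 bright members with means from 10.72 to 13.13, among them rps3a.S and rps27.S of the small subunit and rpl30.S of the large. The other 10 had means from 1.47 to 8.13, and none lay between 8.13 and 10.72. The division at 10 was chosen after the values were seen. The dim probe sets were rpl3l.L (mean 1.47), rpl34.L (2.02), the weaker of 2 for rps10.L (2.66), rps28p9.S (4.02), rps20.L (6.34), rpl28.L (6.98), rpl35.L (7.18), the stronger for rps10.L (7.48), rps6.S (8.12) and rpl38.L (8.13). Apart from rpl3l.L, each of these genes also had a bright probe set, in the case of rpl28 on the .S copy. rpl3l is a paralog of rpl3 that is expressed in striated muscle in mammals, and here its values ran from 1.28 to 1.59, under the median of every array.

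The spread of the members over the 9 arrays was small. Their SDs had a median of 0.090 log2 units, 0.087 for bright and 0.316 for dim members, against 0.248 for all probe sets. Bright probe sets in general vary less on this array, so the members were also set beside probe sets of like signal. In the interquartile range of the member means, from 11.76 to 12.51, the 55 members had a median SD of 0.089 and the 91 other probe sets one of 0.114. These are descriptions, since probe sets of a list are not replicates.

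**Figure D2:**
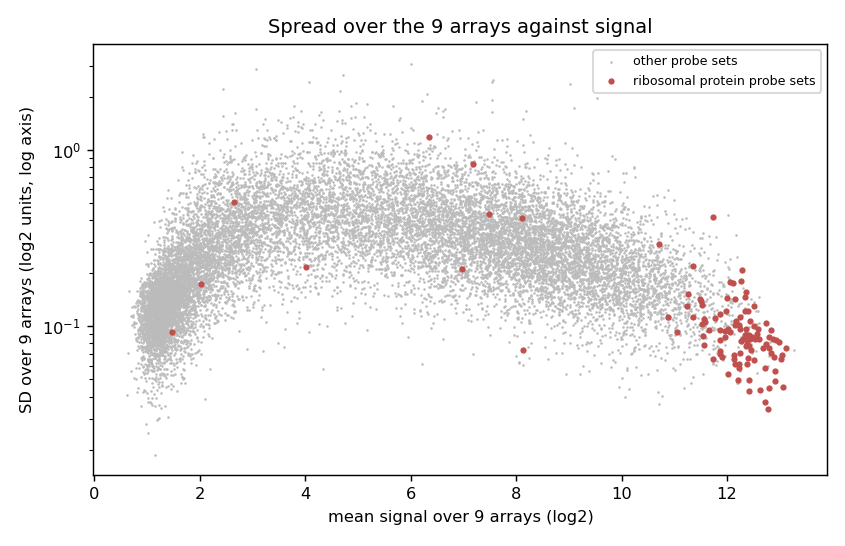
SD over the 9 arrays (log2 units, on a log axis) against mean signal (log2), for ribosomal protein probe sets (red) and other probe sets (grey). The bright members sit at the low end of the spread, with a median SD of 0.087, and the dim ones within the cloud of other probe sets.

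Loss of ADAM13 was addressed by MO13 against CMO. No ribosomal protein probe set passed limma at an adjusted p of 0.05, 0 of 111, where 0.0968% of all probe sets passed. With experiment as a block it was again 0 of 111, where 1.16% of all passed. At an unadjusted p under 0.05 there were 2 members, both lower in MO13, or 1.80% against a background of 6.87% in either direction and 3.71% lower. With the block there were 3 (2.70%), against 16.4% of all probe sets. The median member difference was 0.03 log2 units and that of all probe sets -0.01. Of the members 67 were higher in MO13, 42 lower and 2 equal, a share of 60.4% higher against 48.3% of all probe sets. By experiment, the median was -0.02 in experiment 1, 0.02 in experiment 2 and 0.08 in experiment 3, so its sign was not shared. Centring each array on its own median moved the overall median to 0.09. Among the 91 other probe sets in the interquartile range of the member means the median was also 0.03, with 56 higher.

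Neither subunit stood apart in this comparison. The median difference was 0.02 for the 61 large-subunit probe sets and 0.03 for the 50 of the small subunit. Differences beyond 0.2 log2 units were found for 8 members (7.21%), against 37.6% of all probe sets, and groups did not overlap for 6 (5.41%), against 9.92%. Of the 91 other probe sets in the interquartile range of the member means, 9 differed by more than 0.2. Groups did not overlap for 9 higher and 1 lower of these 91. These counts stand beside the small spread of the members and give no test of the list.

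The intervals limit how large a change in the normalized signal of a probe set could have gone unseen. They do not bound a change in mRNA if signals are compressed near the top of the scale, which was not tested. For 96 of the 101 bright members, the 95% limma interval of MO13 minus CMO lay wholly within 0.5 log2 units of 0, a signal change of 1.41-fold. For MO13_C13 against MO13 and against CMO this held for 98 of 101 each. Of the 10 dim members it held for 2 in MO13 against CMO and for 3 in each of the other comparisons. These intervals are from the fit without the block, so large differences between experiments that the groups share can add to their width. This did not hold for every member. On the bright rpl10.S probe set the SE of MO13 minus CMO was 0.092 without and 0.094 with the block. Its group SDs were 0.01 in MO13_C13, 0.05 in MO13 and 0.06 in CMO. The eBayes step of limma draws each spread towards one shared by all probe sets, which can widen intervals of such steady probe sets. For the dim rpl35.L probe set the SE of MO13 minus CMO was 0.647, and 0.104 with experiment as a block. Within experiments 1, 2 and 3 that probe set differed by -0.06, -0.20 and 0.02. At the tighter bound of 0.3 log2 units (1.23-fold) the bright members inside numbered 46, 46 and 52 in the order MO13 against CMO, MO13_C13 against MO13, and MO13_C13 against CMO. For the other bright members the interval reached past that bound.

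**Figure D3:**
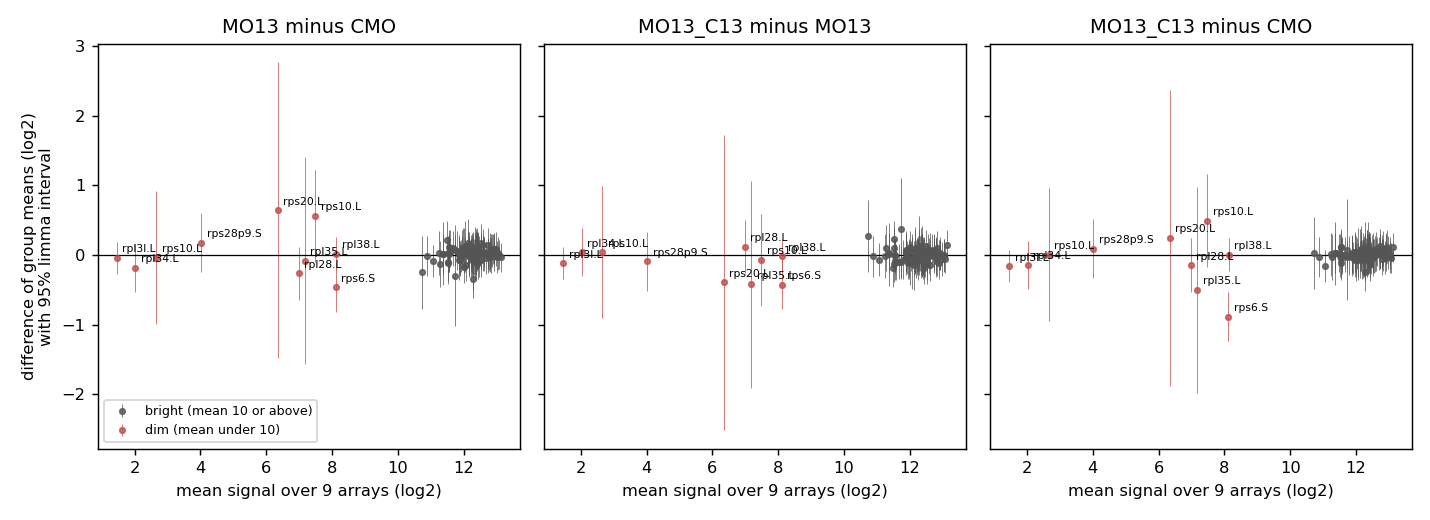
Difference of group means (log2) with its 95% limma interval against mean signal over the 9 arrays (log2), one panel per comparison, for bright (grey) and dim (red, labelled) ribosomal protein probe sets. Bright members gather around 0, with fitted differences between -0.34 and 0.38, while the dim rps20.L, rpl35.L and rps6.S probe sets are farther out or have wide intervals. The intervals are from the fit without experiment as a block.

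Among the large-subunit members lower in MO13, rpl13a.L had the smallest unadjusted p. In mammals rpl13a also takes part in silencing inflammatory mRNAs outside the ribosome. One of its 2 probe sets had signals of 12.11, 12.28 and 12.28 in MO13_C13, 12.11, 11.97 and 12.28 in MO13, and 12.38, 12.52 and 12.49 in CMO arrays. All CMO arrays were above all others on it. MO13 minus CMO was -0.34 (SE 0.118, 95% interval -0.61 to -0.07), which did not pass limma (adjusted p = 0.575). The second rpl13a.L probe set, which is shared with related transcripts, differed by -0.11 (SE 0.097), again with no overlap between MO13 and CMO. MO13_C13 minus CMO was -0.24 and -0.11 on the same probe sets.

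The core protein rpl3, which reaches towards the peptidyl transferase centre, had a pair of probe sets with the same pattern. On the brighter one, MO13_C13 signals were 11.91, 11.94 and 11.81, MO13 signals 10.73, 11.67 and 12.13, and CMO signals 11.55, 11.86 and 12.02. MO13 replicate 1 was the lowest array on both probe sets, at 10.73 and 10.04, and the groups overlapped. MO13 minus CMO was -0.30 and -0.25, and MO13_C13 minus MO13 was 0.38 and 0.28, the 2 highest member differences in that contrast. Without MO13 replicate 1, MO13_C13 minus MO13 was -0.01 and 0.03. These 2 contrasts had opposite signs in experiments 1 and 3, and neither passed (limma, adjusted p of at least 0.939).

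The stalk proteins recruit the translation factors that hydrolyse GTP. rplp0.S, the base of the stalk, lay between 12.36 and 12.50 on all 9 arrays. Its groups overlapped and MO13 minus CMO was 0.02 (95% interval -0.19 to 0.23). rplp2.L, one of the acidic proteins bound to that base, had 12.03, 12.02 and 12.05 in MO13_C13, 11.87, 11.85 and 12.03 in MO13, and 12.04, 12.04 and 12.17 in CMO. Every MO13 array was below every CMO array, and MO13 minus CMO was -0.17, -0.19 and -0.14 within the experiments. At -0.17 (SE 0.101) the mean difference missed limma's threshold (adjusted p = 0.869), and rplp2.S, which overlapped between groups, had -0.10 (SE 0.136). rplp1.L, the partner of rplp2, had 11.75, 11.53 and 11.65 in MO13_C13, 11.40, 11.29 and 11.54 in MO13, and 11.56, 11.50 and 11.52 in CMO. MO13_C13 minus MO13 was 0.23 (SE 0.111, adjusted p = 1) and MO13 minus CMO was -0.12.

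Other large-subunit probe sets with the smallest unadjusted p for a higher signal in MO13 were rpl36a.L and rpl37.S. rpl36a.L differed by 0.15 (SE 0.106) and rpl37.S by 0.17 (SE 0.123), both with an adjusted p of at least 0.902. The bright rpl34.L probe set had 11.62, 11.58 and 11.57 in MO13 and 11.55, 11.52 and 11.33 in CMO, without overlap, a difference of 0.12 (SE 0.101). Its dim probe set, with signals of 1.74 to 2.23, went the other way at -0.18 (SE 0.151).

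In the small subunit, rpsa forms part of the mRNA exit side and is also known as a laminin receptor precursor. rpsa.S had 12.07, 11.99 and 12.11 in MO13_C13, 12.11, 11.88 and 11.98 in MO13, and 12.12, 12.07 and 12.19 in CMO arrays. MO13 minus CMO was -0.14 (SE 0.105) on this probe set and -0.12 (SE 0.099) on the one shared by both copies, with an adjusted p of at least 0.914. Within experiments all 6 differences on these probe sets were below 0, from -0.21 to -0.01. rps16, rps24.L and one rps28p9.S probe set had the smallest p for a higher MO13 signal among bright small-subunit members. Their differences were 0.13 (SE 0.092), 0.14 (SE 0.102) and 0.21 (SE 0.120). The gene rps28p9.S is listed as protein-coding in the RefSeq gene table, and its other bright probe sets gave -0.07 and 0.03.

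Addition of GFP-C13 to the morpholino was addressed by MO13_C13 against MO13. Both comparisons that include MO13 use the same MO13 arrays, so opposite values in them are not independent. No member passed limma, 0 of 111 without and 0 of 111 with the block, where 0.00646% of all probe sets passed in either fit. That share is 1 probe set, adam33.L, so a count of 0 does not set the members apart from other genes. At an unadjusted p under 0.05 there was 1 member (0.901%, background 1.36%), the dim rps6.S probe set. With the block there were 3 (2.70%, background 6.71%), all dim and lower in MO13_C13. The median member difference was -0.01, against 0.00 for all probe sets to 2 decimals, with 47 members higher (42.3%, against 49% of all probe sets), 63 lower and 1 equal. It was -0.04, 0.02 and -0.04 in experiments 1 to 3 and became -0.07 with arrays centred on their medians. Groups did not overlap for 8 members (7.21%), against 4.51% of all probe sets. Of these 2 were higher in MO13_C13 (1.80%, against 1.96%) and 6 lower (5.41%, against 2.55%). The 91 other probe sets in the interquartile range of the member means gave like counts. Of them 38 were higher and 51 lower, and groups did not overlap for 2 higher and 6 lower.

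The differences of the 8 members without overlap were small apart from 1. Higher in MO13_C13 were rps3a.S, by 0.14, and rpl10.S, by 0.05. Lower were rpl38.L (-0.11), rpl6.S (-0.09), rps24.L (-0.14), 2 probe sets of rps29.S (-0.18 and -0.08) and the dim rps6.S probe set (-0.42). Of these rpl10.S, rpl38.L and rpl6.S were named after their values were seen. rps29.S, a zinc-binding protein of the small-subunit head, had 12.36, 12.28 and 12.34 in MO13_C13, 12.54, 12.41 and 12.57 in MO13, and 12.54, 12.34 and 12.49 in CMO on the probe set with the wider gap. Its 3 probe sets gave -0.18, -0.08 and -0.11 for MO13_C13 minus MO13, with an adjusted p of 1 for the first. rps4x gave 0.13 (SE 0.102) in the other direction.

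**Figure D4:**
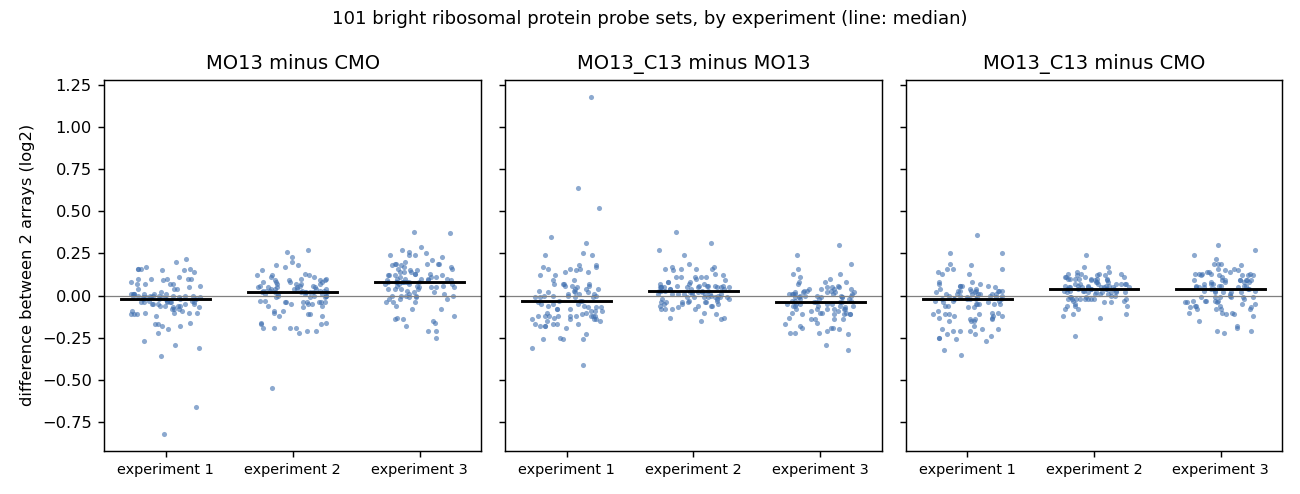
Differences between the 2 arrays of each experiment (log2) for the 101 bright ribosomal protein probe sets in the 3 comparisons, with the median as a black line. The medians run from -0.04 to 0.08 and change sign between experiments in each comparison, and the points farthest out in experiment 1 include rpl3.L.

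The third comparison set MO13_C13 against CMO, the full injection against the control. No member passed limma (0 of 111, background 0.142%), and 1 had an unadjusted p under 0.05 (0.901%, background 7.15%). With experiment as a block 1 of 111 passed (0.901%, background 1.76%), and it was lower in MO13_C13, as were 1.02% of all probe sets. At an unadjusted p under 0.05 the block gave 2 members (1.80%, background 16.1%). The median member difference was 0.01, with 63 higher (56.8%, against 49.2% of all probe sets), 45 lower and 3 equal, and it was -0.02, 0.04 and 0.04 by experiment. Groups did not overlap for 7 members (6.31%), against 12.6% of all probe sets. Among the 91 other probe sets in the interquartile range of the member means, 48 were higher and 41 lower. Groups did not overlap for 5 higher and 1 lower of these 91.

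The one blocked call was the dim probe set of rps6.S. rps6 is the small-subunit protein phosphorylated by S6 kinase downstream of growth signalling. Its signals were 7.79, 7.77 and 7.48 in MO13_C13, 8.06, 8.12 and 8.13 in MO13, and 8.38, 8.86 and 8.45 in CMO arrays. The 3 groups did not overlap, with MO13_C13 lowest, MO13 between and CMO highest. MO13_C13 minus CMO was -0.88 (SE 0.154, 95% interval -1.24 to -0.53), with an adjusted p of 0.102 in limma and 0.0299 with experiment as a block. Within experiments it was -0.59, -1.09 and -0.97. The steps MO13 minus CMO, -0.46 (adjusted p = 0.549, with the block 0.152), and MO13_C13 minus MO13, -0.42 (adjusted p = 1, with the block 0.721), did not pass. When the blocked fit was repeated without each array or each experiment in turn, chosen after the data were seen, the difference stayed between -1.03 and -0.76 and passed in 2 of 12 fits, with adjusted p from 0.0328 to 0.287. The 2 were those without MO13 replicate 1 and without MO13 replicate 3, so leaving out any MO13_C13 or CMO array ended the call.

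The bright probe sets of rps6 gave differences near 0. rps6.S gave 11.24, 11.15 and 11.33 in MO13_C13, 11.24, 11.09 and 11.44 in MO13, and 11.23, 11.06 and 11.40 in CMO arrays, with MO13_C13 minus CMO of 0.01 (95% interval -0.30 to 0.32). rps6.L gave 0.03 (interval -0.43 to 0.48), and the probe set shared by both copies -0.01. The interval of the bright rps6.S probe set does not reach that of the dim one. Which transcript the dim probe set measures was not tested, since no probe sequences were used here.

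**Figure D5:**
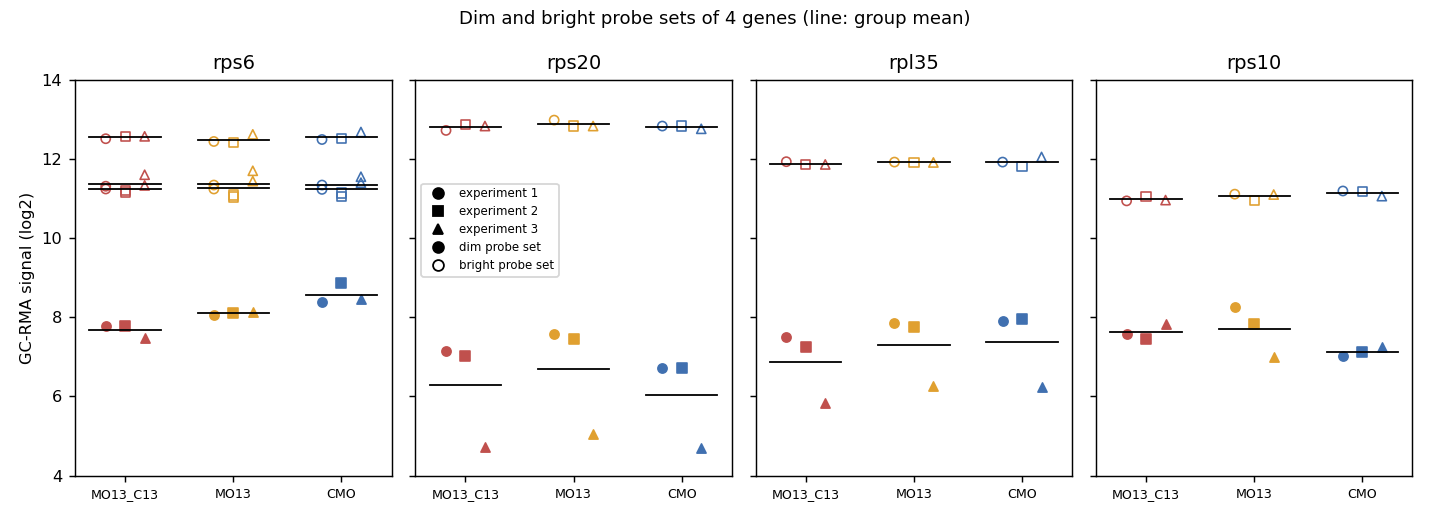
Signals (log2) of dim (filled) and bright (open) probe sets of rps6, rps20, rpl35 and rps10 by group, with experiments 1, 2 and 3 as circles, squares and triangles and group means as black lines. The dim rps6.S signals are lowest in MO13_C13, the dim rps20.L and rpl35.L signals drop in experiment 3 of every group, and the bright probe sets of rps20, rpl35 and rps10 lie level.

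Dim probe sets of rps20, rpl35 and rps10 had fitted differences farther from 0 than the bright ones in the comparisons given here. The dim rpl38.L probe set did not, as it and the bright one both gave 0.01 for MO13_C13 minus CMO. rps20 is a protein of the small-subunit head. Its dim .L probe set had 7.14, 7.02 and 4.73 in MO13_C13, 7.58, 7.45 and 5.04 in MO13, and 6.73, 6.71 and 4.70 in CMO arrays. Within each experiment MO13 was the highest, by 0.85, 0.74 and 0.34 over CMO. The mean difference of 0.64 had an SE of 0.926 and did not pass limma (adjusted p = 0.971), nor with the block (adjusted p = 0.0632). The bright probe set for both rps20 copies differed by 0.07.

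rpl35 lies at the exit of the peptide tunnel. Its dim .L probe set had 7.51, 7.26 and 5.84 in MO13_C13, 7.85, 7.75 and 6.27 in MO13, and 7.91, 7.95 and 6.25 in CMO. MO13_C13 was the lowest group in every experiment, with MO13_C13 minus CMO of -0.40, -0.69 and -0.41, a mean of -0.50 (adjusted p = 0.993, with the block 0.0645). MO13_C13 minus MO13 was -0.34, -0.49 and -0.43, a mean of -0.42 that did not pass (limma with the block, unadjusted p = 0.00445, adjusted p = 0.721). The bright rpl35.L probe set gave -0.05 for MO13_C13 minus CMO and -0.03 for MO13_C13 minus MO13. rps10 sits in the small-subunit head. Its stronger dim probe set had 7.59, 7.46 and 7.83 in MO13_C13, 8.26, 7.83 and 6.99 in MO13, and 7.01, 7.12 and 7.26 in CMO, so MO13_C13 did not overlap CMO while MO13 did. The differences of 0.50 for MO13_C13 minus CMO and 0.56 for MO13 minus CMO did not pass (limma, adjusted p of at least 0.797), and MO13 minus CMO was 0.28 without MO13 replicate 1 and 0.92 without MO13 replicate 3. The bright rps10 probe set gave -0.15 and -0.09.

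The experiments differed in few members. In limma's F-test over the 3 experiments 4 of 111 members passed (3.60%), against 21.1% of all probe sets, and 1 of the 4 was bright. Among the 91 other probe sets with means in the interquartile range of the members, 11.76 to 12.51, 5 passed (5.49%). Of the 101 bright members, whose means span the wider range of 10.72 to 13.13, 1 passed (0.990%). The dim rps20.L probe set averaged 7.15, 7.06 and 4.82 in experiments 1, 2 and 3 (adjusted p = 0.00015), and the dim rpl35.L one 7.76, 7.65 and 6.12 (adjusted p = 0.000451). Experiment 3 was low in all 3 groups on both, and experiment 3 minus the mean of experiments 1 and 2 was -2.28 and -1.59. The bright probe sets of these genes were level, at 12.84, 12.84 and 12.81 for rps20 and 11.92, 11.86 and 11.94 for rpl35.

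The bright exception was rps6.L, with 11.33, 11.13 and 11.62 in experiments 1, 2 and 3 (limma F-test, adjusted p = 0.0327). The bright rps6.S probe set had the same order, at 11.24, 11.10 and 11.39, and did not pass (adjusted p = 0.132). The faint rps10.L probe set averaged 2.76, 2.11 and 3.11 (adjusted p = 0.0431). The calls for rps6.L and rps10.L were lost in 9 of 13 and 6 of 12 alternatives, mostly on leaving out a single array. rpl4.S and rps3a.L came next, with adjusted p of 0.0966 and 0.132. The sum of squares of the bright members around their means lay 47.8% between experiments, 20.7% between groups and 31.5% in the remainder. Over all probe sets these shares were 57.6%, 22.5% and 19.8%. Values without any group difference also give a share between groups, so that share does not measure an effect of the injections.

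The duplicated copies could be compared at 8 genes with a probe set naming 1 symbol for each. The MO13 minus CMO difference was read on .L minus .S. Among the probe sets used, 1 per copy, it was widest for rpl28, where the .L probe set was dim, at -0.26 for .L and 0.03 for .S. Next came rps3, a protein of the mRNA entry side, with 0.07 for .L and -0.01 for .S, and rplp2, with -0.17 and -0.10. It was narrowest for rps6, with 0.02 and 0.03, for rps3a, with 0.00 and -0.03, and for rps12, with 0.06 and 0.03. Another bright rps3a.L probe set, not used here, gave 0.05, so the place of rps3a depends on the probe set taken. For rps6.S the bright probe set was used. The dim rps6.S probe set, left out here, had -0.46, farther from rps6.L than the rpl28 copies were from each other. Among the 7 genes with both copies bright, no pair of the probe sets used differed by more than 0.08 in this contrast, less than the SE of either copy.

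The divergent paralogs had intervals that include 0. rpl22l1.L, the paralog of rpl22, had 11.24, 11.20 and 11.44 in MO13_C13, 11.07, 11.05 and 11.46 in MO13, and 11.38, 11.21 and 11.38 in CMO arrays, with MO13 minus CMO of -0.13 (95% interval -0.46 to 0.20). rpl22.S had -0.01 (interval -0.29 to 0.28). rpl7l1.L, the paralog of rpl7, had 0.01 (interval -0.24 to 0.26). rps27 was read as the partner of the paralog rps27l and is not itself a divergent paralog. The 4 probe sets of rps27.S gave between -0.03 and 0.05 for MO13 minus CMO. For rpl3l.L MO13_C13 minus CMO was -0.16 (SE 0.100) at signals of 1.28 to 1.59.

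Probe sets of one gene show how far differences of related measurements vary. For 24 genes with several members the differences of MO13 minus CMO within a gene spanned a median of 0.09 log2 units, and all had the same sign in 14. The widest span over the 24 genes was 0.65, at rps10, where 2 of 3 probe sets were dim. Among the 18 genes with several bright probe sets the span was at most 0.29, at rps28p9.

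The authors' deposited table of probe sets they associate with loss of ADAM13 holds 6121 entries, 39.5% of the array, and 40 of them are ribosomal protein probe sets, 36.0% of the members. There, 25 of the 40 are higher in MO13 and 15 lower. Their shorter table, for loss and addition of GFP-C13, holds 2097 entries (13.5%) and 19 members (17.1%), and all 19 are also in the longer one. Which test made these tables is not stated. Of the 40 members, 2 had an unadjusted p under 0.05 in limma for MO13 minus CMO, and 3 with experiment as a block. Among all probe sets of the array these shares were 6.87% and 16.4%.

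Genes that work with the ribosome were read in the same fit. A list of translation factors, and of other mRNAs taken to carry the oligopyrimidine tract, held 73 probe sets. Which of these mRNAs carry the tract was not tested, since no sequences were used. On this list 0 passed limma in any comparison or with the block. At an unadjusted p under 0.05, 2 were higher and 3 lower in MO13 than in CMO, beside 489 higher and 575 lower among all 15491 (6.87%). Of the 73 probe sets 45 were higher and 28 lower in MO13 than in CMO, with a median of 0.04 (48.3% higher among all probe sets). eif3k.L, a subunit of the initiation factor that binds the small subunit, averaged 7.73 in MO13_C13, 7.89 in MO13 and 8.43 in CMO, with MO13_C13 minus CMO of -0.70 (adjusted p = 0.264). Ribosome biogenesis was represented by 105 probe sets, again with 0 passing. In MO13_C13 against CMO 64 were higher and 41 lower, with a median of 0.05 (49.2% higher among all probe sets). At an unadjusted p under 0.05 there were 4 higher and 1 lower, beside 538 higher and 569 lower among all probe sets (7.15%). mrto4.L, a large-subunit assembly factor, averaged 5.43 in MO13_C13, 5.76 in MO13 and 6.75 in CMO, a difference of -1.32 between MO13_C13 and CMO (adjusted p = 0.329). dkc1.L, the pseudouridine synthase of ribosomal RNA, averaged 11.51 in MO13_C13, 11.40 in MO13 and 11.13 in CMO (0.38, adjusted p = 0.354).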

How the data were processed

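The authors deposited log2 GC-RMA signals, 1 value per probe set, which the submitters' processing notes credit to GCRMA in Affymetrix Expression Console. Software versions are not stated, and detection calls were not used here. The fold columns of the authors' deposited lists are log2 differences, and their array values differ from the value table by 0. Members were found by symbol in the array annotation. Of their 89 gene identifiers 88 were found in the RefSeq gene table, with 0 symbols changed.

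All 15491 probe sets were tested with limma 3.58.1 in R 4.3.3 (lmFit, eBayes, no trend, not robust), 9 arrays, group as the only term, two-sided, Benjamini-Hochberg over all probe sets, threshold 0.05. Intervals are limma's at 95%, from this fit with group as the only term. The foremost alternative added experiment as a block. Replicate numbers pair the arrays because the labels tie equal numbers to one experiment. Deviations from group means correlated at 0.506 to 0.734 over the 9 pairs of one experiment and at -0.464 to -0.059 over the other 18. Precision is set by 3 arrays a group. The fit was run on simulated data with planted differences larger than most member differences. That run does not measure its power at the sizes reported here.

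Members and lists were chosen with earlier results of these data known. Named were members passing either fit, the 6 with the smallest p in each direction of a comparison and over experiments, the stalk, rpsa, paralogs, the 3 most and 3 least different copy pairs, and up to 4 members of other lists. The dim probe sets were named after their values were seen. Other alternatives were the compared arrays alone, a filter on low signal, centring, repeated quantile normalization, trend and robust settings, and leaving out each array or experiment. No sequence is shown, since none was given. Some ribosomal proteins are not reported here.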

Additional observations from a re-analysis of the deposited data

How the results depend on the processing

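Counts of ribosomal protein probe sets passing were 0 in every comparison under each alternative without the block, leaving out any array or experiment included. MO13_C13 minus CMO gave 1 with experiment as a block, the dim rps6.S probe set (-0.88), and with all 9 arrays the block changed no other member's call. That probe set also passed in 2 of the 12 blocked fits with an array or experiment left out. Over all probe sets MO13 minus CMO gave 179 with the block, 0 with only the compared arrays, 9 without probe sets under the median mean and 8 with trend and robust settings, against 15 as reported. MO13_C13 minus CMO gave 272 with the block and 9 with only the compared arrays, against 22. Leaving out an array or an experiment gave 0 to 14 for MO13 minus CMO, 0 to 1 for MO13_C13 minus MO13 and 0 to 23 for MO13_C13 minus CMO. The median member difference ran from -0.005 to 0.05, from -0.04 to -0.008 and from -0.01 to 0.04 in these comparisons. Centring arrays on their medians gave 0.09 for MO13 minus CMO and -0.07 for MO13_C13 minus MO13, and turned the median of experiment 3 minus the mean of 1 and 2 to -0.083 (0.02 as reported, 0.008 to 0.04 with an array left out). Members differing between experiments numbered 9 with trend and robust settings and 2 to 4 with an array left out, against 4. Centring subtracts each array's own median, so it moves all probe sets of a comparison by the same amount. These array medians were 5.01, 4.94 and 5.07 in MO13_C13, 4.88, 4.93 and 5.04 in MO13, and 4.98, 4.99 and 5.07 in CMO. The cause of the other shifts was not tested. Of 1800 values of single probe sets under the alternatives, 160 had another sign. The precision is limited by 3 arrays a group, and for the bright members by signals close to the highest on the array.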

Other observations

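The mitochondrial ribosome is a separate machine that translates the few proteins encoded in mitochondrial DNA, and its protein subunits are made in the cytosol. Its 41 probe sets were dimmer than the cytosolic ones, with a median mean signal of 7.72. In MO13_C13 against MO13, 32 were higher and 9 lower, with a median of 0.11 log2 units (0.00 for all probe sets to 2 decimals, of which 49% were higher). The medians in experiments 1, 2 and 3 were 0.21, 0.17 and 0.07. In MO13 against CMO 14 were higher and 27 lower (48.3% higher among all probe sets), with a median of -0.10, and these comparisons share the MO13 arrays. By experiment that median was -0.28, -0.03 and -0.03, so it was far from 0 in experiment 1 only. In MO13_C13 against CMO 28 were higher and 13 lower (49.2% higher among all), with a median of 0.08. It was 0.09, 0.12 and -0.02 by experiment, so its sign was not shared. No probe set of the list passed limma in any comparison, with or without experiment as a block. At an unadjusted p under 0.05 in limma, 3 were higher and 2 lower in MO13 than in CMO, beside 489 higher and 575 lower among all 15491. In MO13_C13 against MO13 there were 0 in limma, and with the block 7 higher and 0 lower, beside 602 higher and 438 lower among all. In MO13 against CMO the block gave 5 higher and 4 lower, beside 1171 higher and 1375 lower among all. In MO13_C13 against CMO it also gave 5 higher and 4 lower, beside 1213 and 1276. mrpl51.L, a protein of the large mitochondrial subunit, averaged 7.997 in MO13_C13, 7.94 in MO13 and 8.58 in CMO, with MO13 minus CMO of -0.63 (limma, adjusted p = 0.191, with the block 0.06). mrps30.S averaged 6.11 in MO13_C13, 6.23 in MO13 and 5.57 in CMO, with MO13 minus CMO of 0.66 (adjusted p = 0.549).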
